A study of Mus musculus with 6 samples.

Results

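Of the 16759 genes measured in hind leg muscle of control (Con) and exercise (EX) mice, 10 genes of fatty acid uptake, binding and activation are described here. They were chosen by name for their place in this pathway: Lpl, Gpihbp1 and Angptl4 of lipoprotein lipolysis, Cd36 of uptake, Fabp3, Fabp4 and Fabp5 of binding inside the cell, and Acsl1, Acsl3 and Acsl4 of activation. All 10 were found in the table by gene symbol. Male C57BL/6J mice, 8 weeks old at the start, were assigned at random to Con, which did no treadmill training, or to EX. EX mice had 6 weeks of treadmill running, with 5 sessions of 60 min each week and a distance of 22 km per mouse, and their muscle was taken 24 h after the final session. Each group had 3 mice with 1 RNA sequencing library each. The mice were perfused with saline and fat between the muscles was removed, and the sources do not say which muscles of the hind leg were taken.

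Muscle takes much of its fuel from fatty acids carried in blood. Lipoprotein lipase (Lpl), made mainly by muscle fibres and fat cells, is carried by Gpihbp1 to the inner face of capillaries, where it frees fatty acids from triglyceride-rich lipoproteins, and Angptl4 inhibits it. Cd36 on capillary and fibre membranes promotes uptake, fatty acid binding proteins carry the lipid through the cytosol, and long-chain acyl-CoA synthetases join it to coenzyme A so that it can be burned or stored. Many of these genes are known targets of PPAR nuclear receptors.

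Total counts per library lay between 13845362 and 16240431. Levels are given as CPM, the TMM-scaled share of a library's counts, and groups were compared with edgeR's quasi-likelihood test, Benjamini-Hochberg adjusted over the 10883 genes whose FPKM averaged 1 or more. All 10 genes passed this filter, the lowest being Angptl4 with a mean of 1.79 FPKM. Muscle markers were abundant in both groups, Ckm (muscle creatine kinase) averaging 26480 CPM in Con and 27010 CPM in EX. Slow fibre markers stood far apart: the 7 genes summed to 99.3 to 104.2 CPM in Con and 349.2 to 375.3 CPM in EX, and Myh7, the slow myosin heavy chain, averaged 1.005 CPM in Con and 102.2 CPM in EX. Myh2, the heavy chain of fast oxidative fibres, averaged 754.9 CPM in Con and 450.0 CPM in EX, but of the 9 fast fibre markers 5 were higher and 2 lower (with limma on FPKM or TPM, 3 of the 9 were called), and their sum was 142100 to 142900 CPM in Con and 150800 to 157400 CPM in EX. In bulk muscle, fewer cells of a type and less RNA per cell cannot be told apart, and the part of fibre type and of the muscles taken in the results on fatty acid genes was not tested.

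In EX muscle, 4 of the 10 genes fell and 1 rose at an adjusted p-value under 0.05. Lpl fell most, followed by Fabp3, Gpihbp1 and Cd36, and Acsl3 rose. The 10 genes were chosen with earlier results of these data known, so the shares set beside all genes below are a description. The calls covered 5 of 10 genes, where 17.9% of all genes tested were called. The decreases were 4 of 10 against a background of 8.8%, and the increase was 1 of 10 against 9.11%. The Con and EX values did not overlap for 7 of the 10 genes, all but Fabp4, Fabp5 and Acsl4, where 33.7% of all genes tested did not overlap. The median log2 fold change of the 10 genes was -0.09, and that of all genes tested was -0.0009. The summed CPM of the 10 genes lay between 1984 and 2019 in Con and between 1743 and 1782 in EX.

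**Figure D1:**
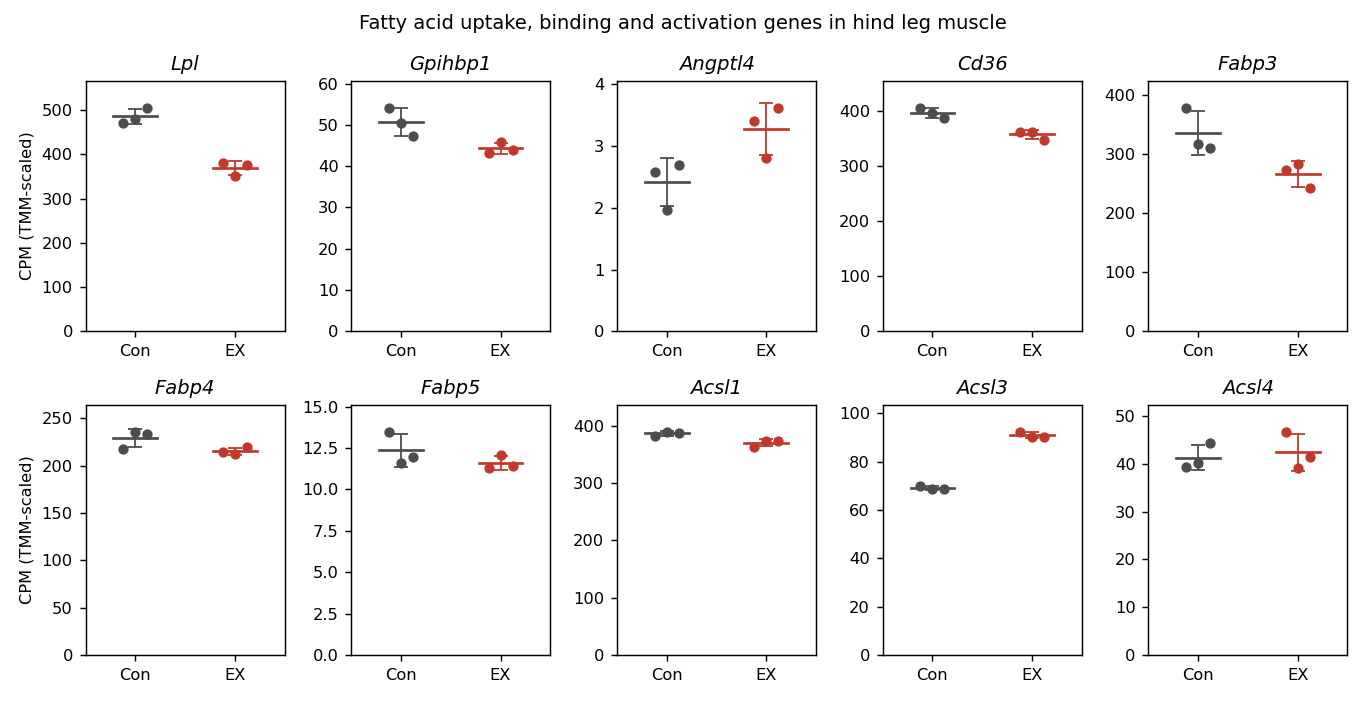
TMM-scaled CPM of the 10 genes in each library, with Con in grey and EX in red. Points are single mice, the long bar is the mean and the error bar the SD of 3 mice, and each axis starts at 0. The 3 EX points lay below all Con points for Lpl, Gpihbp1, Cd36, Fabp3 and Acsl1 and above them for Angptl4 and Acsl3.

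Lpl (gene 16956), the enzyme itself, was measured at 471.6, 480.4 and 505.1 CPM in Con replicates 1 to 3 and at 379.4, 350.3 and 376.6 CPM in EX replicates 1 to 3. Every EX library was thus below every Con library. The mean was 485.7 ± 17.4 CPM (SD, n = 3) in Con and fell to 368.7 ± 16.1 CPM in EX (log2 fold change -0.40, standard error 0.04, 95% confidence interval -0.48 to -0.32, adjusted p = 1.3e-08 with edgeR). These levels rested on 5501 to 8054 counts per library. The decrease was past the threshold in all 15 alternative fits, with log2 fold changes between -0.49 and -0.36.

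Gpihbp1 (68453), the capillary protein that holds lipoprotein lipase, was at 54.2, 50.4 and 47.4 CPM in Con and at 43.3, 45.9 and 43.8 CPM in EX. The groups did not overlap, although the lowest Con and the highest EX library lay close together. Its mean fell from 50.6 ± 3.38 to 44.3 ± 1.33 CPM (log2 fold change -0.19, 95% confidence interval -0.30 to -0.08, adjusted p = 0.0147 with edgeR). The call was lost without Con replicate 1 (log2 fold change -0.15, adjusted p = 0.0683), without EX replicate 1 (-0.17, 0.0604), without EX replicate 3 (-0.18, 0.0640) and with DESeq2 (-0.19, 0.0667). On the FPKM scale the decrease was larger, at -0.33 with limma on log2(FPKM + 0.1), a scale where the median of all genes was -0.06. Gpihbp1 was the gene of the 10 whose counts and FPKM moved apart most. The length that count over FPKM implies averaged 440 bases in Con and 465 bases in EX. Its relative change was 0.08 on the log2 scale, where the 90th percentile of the absolute change over all genes tested was 0.033. This change in implied length gave p = 0.1 in an exact two-sided permutation test, the smallest p that 3 mice against 3 allow, and 0.875 when adjusted over the 10 genes. GENCODE M21 annotates 3 coding transcripts of Gpihbp1 that differ in length, and which length the authors' FPKM used is not given in the sources used here.

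Angptl4 (57875), the secreted inhibitor, was the least abundant of the 10 genes. It was at 2.58, 1.97 and 2.70 CPM in Con and at 3.41, 2.80 and 3.62 CPM in EX, so that all EX values were above all Con values, the nearest pair only narrowly. The log2 fold change was 0.44, with a 95% confidence interval from 0.06 to 0.82, and it did not pass the threshold (adjusted p = 0.101 with edgeR). Its 31 to 57 counts per library limit the precision, and none of the 14 alternative fits that kept it called it.

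Per length, the transcript ratio of enzyme to inhibitor was lower in EX in every library. The log2 ratio of Lpl to Angptl4 TPM was 6.28, 6.69 and 6.30 in Con and 5.56, 5.73 and 5.47 in EX, and the groups did not overlap. The difference of -0.84 gave p = 0.1 in an exact two-sided permutation test, the smallest possible, and 0.18 when adjusted over the 9 relations of levels compared. The log2 ratio of Lpl to Gpihbp1 averaged 0.18 ± 0.14 in Con and 0.05 ± 0.12 in EX, overlapped between the groups and gave p = 0.3 in the exact permutation test (adjusted 0.337). The difference of -0.13 in this ratio lay between -0.21 and -0.07 with 1 library left out, and it includes the change in implied length of Gpihbp1.

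Other genes of the lipoprotein lipase system mostly gave no call. Of 15 listed genes 10 were tested, 1 was lower and none was higher, where 17.9% of all genes tested were called. The median log2 fold change of the list was 0.02. The lower gene was Vldlr, a receptor that binds triglyceride-rich lipoproteins next to the lipase, with 420.7 ± 12.4 CPM in Con and 337.1 ± 3.70 CPM in EX (log2 fold change -0.32, adjusted p = 1.6e-07 with edgeR). A 2nd gene of the list was called without EX replicate 2.

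Cd36 (12491), the membrane receptor for long-chain fatty acids, was at 405.4, 395.2 and 386.4 CPM in Con and at 362.2, 362.3 and 347.6 CPM in EX. No EX library reached the lowest Con library. The mean fell from 395.7 ± 9.53 to 357.4 ± 8.45 CPM (log2 fold change -0.15, 95% confidence interval -0.22 to -0.07, adjusted p = 0.0043 with edgeR). Without EX replicate 3 the log2 fold change was -0.13 and the call was lost (adjusted p = 0.0564). On log2(TPM + 0.1) the change was -0.23, on a scale where the median of all genes was -0.09.

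Among the other fatty acid transport genes, 15 of 25 listed were tested, 5 were lower and 2 higher, and the median log2 fold change was -0.04. Caveolin 1 (Cav1), the coat protein of caveolae in endothelium and fat cells, was at 301.7 ± 7.31 CPM in Con and 257.7 ± 9.59 CPM in EX, lower by a log2 fold change of -0.23. Flt1, a receptor for VEGFB, changed by -0.27, and Slc27a1, which encodes fatty acid transport protein 1, by -0.22. Got2, a mitochondrial aminotransferase that is also known as a plasma membrane fatty acid binding protein, rose by 0.16, from 523.9 ± 15.05 to 587.2 ± 15.03 CPM. The adjusted p-values of these genes with edgeR were 7.6e-05 for Cav1, 9.1e-06 for Flt1, 0.0009 for Slc27a1 and 0.0013 for Got2.

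Blood vessel markers moved in the same direction as Lpl, Gpihbp1 and Cd36. The 10 endothelial markers summed to 826.4 to 841.1 CPM in Con and to 731.0 to 750.1 CPM in EX, with 5 lower (Cdh5, Tie1, Pecam1, Egfl7 and Kdr), 1 higher (Cldn5) and a median log2 fold change of -0.15. For every 100 CPM of these markers, Gpihbp1 had 5.72 to 6.39 CPM in Con and 5.85 to 6.09 CPM in EX, and Cd36 had 46.6 to 47.8 CPM in Con and 47.4 to 48.9 CPM in EX. Relative to endothelial markers, both genes therefore overlapped between the groups. Lpl had 55.6 to 61.0 CPM in Con and 46.5 to 51.3 CPM in EX for every 100 CPM of the markers and remained apart. Fabp3, a gene of muscle fibres, also overlapped, with 37.5 to 44.5 CPM in Con and 33.0 to 37.7 CPM in EX, and Acsl1 was higher in EX without overlap, with 45.2 to 47.0 CPM in Con and 49.1 to 51.0 CPM in EX. Fabp4 overlapped, with 25.7 to 28.5 CPM in Con and 28.2 to 29.9 CPM in EX, as did Fabp5 and Acsl4, while Acsl3 and Angptl4 stayed higher in EX without overlap. These ratios were chosen after the values were seen, and none of them was tested.

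Fabp3 (14077), the fatty acid binding protein of heart and skeletal muscle fibres, was at 377.5, 316.3 and 310.4 CPM in Con and at 271.9, 283.4 and 242.1 CPM in EX. Con replicate 1 was well above the other Con libraries, and all EX libraries were below all Con libraries. The mean fell from 334.7 ± 37.2 to 265.8 ± 21.3 CPM (log2 fold change -0.33, 95% confidence interval -0.45 to -0.22, adjusted p = 8.8e-05 with edgeR). Without Con replicate 1 the log2 fold change was -0.24 and it stayed past the threshold, as in all 15 alternative fits. The sequence of Fabp3 is not all its own: 50.1% of the 793 stretches of 31 bases in its coding transcript also occur in 4 other genes, 279 of them in the pseudogene Fabp3-ps1, which the table does not list, and 51 in Zcchc17, its neighbour on the opposite strand. Whether the counting used strand is not given in the sources used here, so reads of these genes could enter the values of Fabp3, which was not tested. Its counts were whole in all 6 libraries. Of the 5 general muscle markers, myoglobin (Mb) was lower (log2 fold change -0.14, adjusted p = 0.0032 with edgeR), the actin gene Acta1 was higher (0.22, 3.4e-06), and Ckm, Des and Ttn did not pass the threshold, while all 7 slow fibre markers were higher.

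Fabp4 (11770), a binding protein of fat cells, capillary endothelium and macrophages, was at 217.9, 236.0 and 233.9 CPM in Con and at 214.6, 212.0 and 219.3 CPM in EX. The groups overlapped through Con replicate 1 and EX replicate 3. The log2 fold change was -0.09 with a 95% confidence interval from -0.17 to -0.01, and the adjusted p was 0.112 with edgeR. Without Con replicate 1 it was -0.13 and passed the threshold (adjusted p = 0.0100), as it did at -0.12 with totals without the 20 most abundant genes (0.0411) and at -0.19 with limma on log2(TPM + 0.1) (0.0216). Fat cell and macrophage markers moved the other way: the 9 adipocyte markers summed to 35.9 to 37.9 CPM in Con and 60.6 to 69.0 CPM in EX with 5 of 6 tested higher, and the 10 macrophage markers to 45.4 to 49.2 CPM in Con and 80.2 to 86.0 CPM in EX with 6 of 7 tested higher. Adipoq, a defining fat cell gene, averaged 1.43 CPM in Con and 3.32 CPM in EX, while the fat cell genes Plin1, Lep and Cidea were under the filter. The part of fat cells and macrophages in the levels of Fabp4 and Lpl was not tested.

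Fabp5 (16592), the binding protein of epidermis and of many other cells, was at 13.5, 11.6 and 12.0 CPM in Con and at 11.3, 12.1 and 11.4 CPM in EX. The groups overlapped, and a change between -0.27 and 0.10 on the log2 scale lies in the 95% confidence interval of its log2 fold change of -0.09 (adjusted p = 0.578 with edgeR). The estimate was -0.03 without Con replicate 1, -0.13 without Con replicate 2 and -0.18 on log2(TPM + 0.1), and no alternative called it. Of its 957 stretches of 31 bases, 33.1% also occur in other genes, and the 4 genes that share most of them are not in the table. The 2 of 6 keratinocyte markers that the table holds, Krt10 and Sfn, summed to 3.63 to 4.82 CPM in Con and 3.74 to 4.40 CPM in EX. In the RefSeq annotation (GRCm38.p6), Fabp5, Pmp2, Fabp9, Fabp4 and Fabp12 lie in a row on chromosome 3, and of these 5 genes only Fabp4 and Fabp5 passed the filter here.

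Of the summed TPM of Fabp3, Fabp4 and Fabp5, Fabp3 took 62.6%, 56.5% and 56.2% in Con and 55.2%, 56.4% and 51.7% in EX. Fabp4 took 36.2%, 42.3% and 42.5% in Con and 43.6%, 42.2% and 46.9% in EX. Both shares overlapped between the groups (exact two-sided permutation test, p = 0.2 and 0.3, adjusted 0.3 and 0.337). Fabp5 took 1.17% to 1.27% in Con and 1.30% to 1.39% in EX without overlap (p = 0.1 in the exact permutation test, adjusted 0.18).

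**Figure D2:**
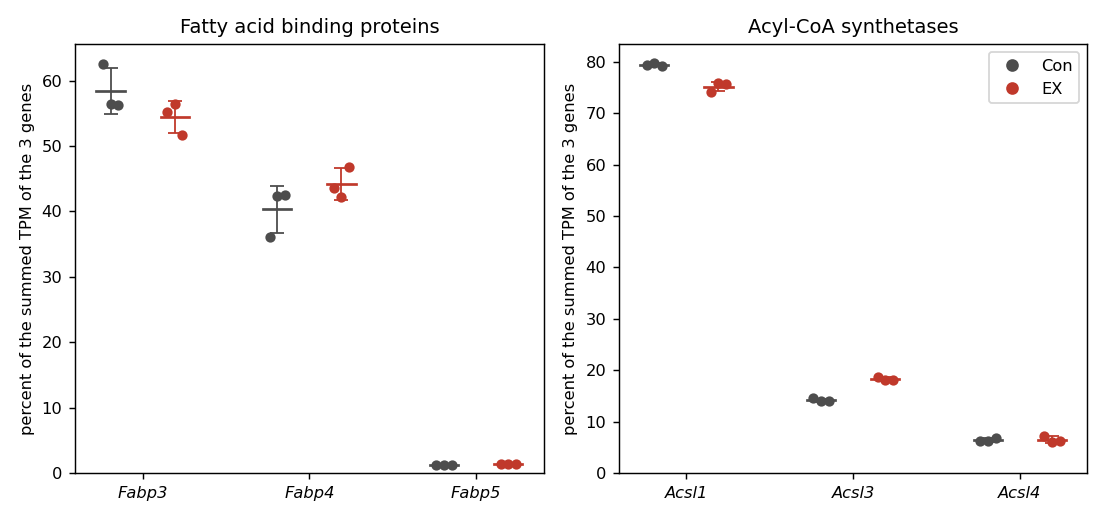
Share of each gene in the summed TPM of the 3 genes of its panel in each library, in percent. The panels show 3 binding proteins on the left and 3 acyl-CoA synthetases on the right. Points are single mice, long bars are means and error bars the SD of 3 mice. The share of Acsl1 was lower and that of Acsl3 higher in all EX libraries, while the shares of Fabp3 and Fabp4 overlapped.

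Acsl3 (74205), an acyl-CoA synthetase of the endoplasmic reticulum and lipid droplets, was the only one of the 10 genes called higher. It was at 69.9, 68.8 and 68.5 CPM in Con and at 92.5, 90.2 and 90.2 CPM in EX, with little spread inside either group. The mean rose from 69.1 ± 0.771 to 90.9 ± 1.33 CPM (log2 fold change 0.40, standard error 0.04, 95% confidence interval 0.31 to 0.49, adjusted p = 1.3e-07 with edgeR). The increase was past the threshold in all 15 alternative fits, with log2 fold changes between 0.30 and 0.40. The deposited counts of Acsl3 were not whole in any of the 6 libraries, between 975.18 and 1465.71. Its coding transcripts share 185 of 4014 stretches of 31 bases, 4.61%, with Utp14b, the neighbouring gene on the same strand. How reads shared by the 2 genes were divided is not given in the sources used here. Utp14b was under the filter, with 28.76 to 46.2 counts per library. Its log2 fold change was 0.14 in the fit without a filter (adjusted p = 0.727 with edgeR). The part of shared reads in the values of Acsl3 was not tested.

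Acsl1 (14081), the main long-chain acyl-CoA synthetase of muscle, was at 382.7, 390.2 and 388.1 CPM in Con and at 363.6, 374.0 and 374.0 CPM in EX. All EX libraries were below all Con libraries, by a small margin. Its log2 fold change of -0.06 (95% confidence interval -0.13 to 0.01) did not pass the threshold (adjusted p = 0.229 with edgeR). It passed in 1 of 15 alternative fits, limma on log2(TPM + 0.1), at -0.15 (adjusted p = 0.0200).

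Acsl4 (50790), which prefers arachidonate and other polyunsaturated fatty acids, was at 39.5, 40.2 and 44.3 CPM in Con and at 46.8, 39.2 and 41.4 CPM in EX. EX replicate 2 was below and EX replicate 1 above every Con library. The log2 fold change was 0.04 with a 95% confidence interval from -0.09 to 0.17 (adjusted p = 0.738 with edgeR), and its sign turned on the FPKM and TPM scales and without EX replicate 1.

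Of the summed TPM of the 3 synthetases, Acsl3 took 14.5%, 13.99% and 13.9% in Con and 18.7%, 18.1% and 18.1% in EX. Acsl1 took 79.4%, 79.8% and 79.3% in Con and 74.2%, 75.9% and 75.6% in EX. Neither share overlapped between the groups, and EX minus Con was 4.17 percentage points for Acsl3 and -4.26 for Acsl1. The log2 TPM ratio of Acsl3 to Acsl1 averaged -2.49 ± 0.03 in Con and -2.04 ± 0.04 in EX. Each of these relations gave p = 0.1 in an exact two-sided permutation test, the smallest possible, and 0.18 when adjusted over 9. The share of Acsl4 averaged 6.38% in Con and 6.48% in EX and overlapped (p = 0.8 in the exact permutation test).

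The sequences upstream of the Acsl1 and Acsl3 starts are shown because Acsl3 was called and Acsl1 was not, and that of Fabp3 because it fell. RefSeq windows of 250 bases before the start (GRCm38.p6) were found for 5 of the 10 genes, with 2 windows for Acsl1. Each is written on the strand of the gene, 5′ to 3′, up to the base before the start. Capitals mark the GC box GGGCGG and the CCAAT box CCAAT on either strand, and in Acsl3 the CCAAT box lies directly before a GC box. The windows lie at chr1:78657575-78657824 (+) for Acsl3, chr8:46470787-46471036 (+) and chr8:46490716-46490965 (+) for the upstream and the downstream start of Acsl1, and chr4:130308488-130308737 (+) for Fabp3.
Acsl3: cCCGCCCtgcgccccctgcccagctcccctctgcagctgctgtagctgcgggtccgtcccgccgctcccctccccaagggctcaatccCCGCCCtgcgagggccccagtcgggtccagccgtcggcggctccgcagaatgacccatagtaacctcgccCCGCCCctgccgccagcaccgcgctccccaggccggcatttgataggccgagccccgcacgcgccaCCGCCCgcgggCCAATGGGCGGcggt
Acsl1, upstream start: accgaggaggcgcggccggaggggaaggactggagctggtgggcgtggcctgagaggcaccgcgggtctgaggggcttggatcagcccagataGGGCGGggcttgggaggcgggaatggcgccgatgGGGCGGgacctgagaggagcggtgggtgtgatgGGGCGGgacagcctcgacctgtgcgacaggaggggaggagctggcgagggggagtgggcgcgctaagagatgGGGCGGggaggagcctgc
Acsl1, downstream start: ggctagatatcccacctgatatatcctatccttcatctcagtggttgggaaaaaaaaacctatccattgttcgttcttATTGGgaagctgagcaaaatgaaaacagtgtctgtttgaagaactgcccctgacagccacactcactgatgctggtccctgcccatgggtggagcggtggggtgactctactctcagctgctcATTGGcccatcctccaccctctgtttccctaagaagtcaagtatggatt
Fabp3: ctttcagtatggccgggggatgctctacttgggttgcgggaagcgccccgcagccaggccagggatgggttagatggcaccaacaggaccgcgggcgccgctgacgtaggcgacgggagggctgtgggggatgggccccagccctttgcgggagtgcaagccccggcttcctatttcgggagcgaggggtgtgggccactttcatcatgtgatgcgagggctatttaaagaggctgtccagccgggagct

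The Acsl3 window held 5 GC boxes and 1 CCAAT box, with 75.6% G or C. The upstream window of Acsl1 held 4 GC boxes at 72.0% G or C, and the downstream window held none but 2 CCAAT boxes at 48.4% G or C. In the Fabp3 window neither box was found. Of 32851 windows of all genes, 32.7% held a GC box and 33.8% a CCAAT box. The nuclear receptor half-site AGGTCA, which 14% of all windows hold, was found only in the Cd36 window among the 6 windows of these genes, and the direct repeat of it with 1 base between, to which PPAR receptors bind, was found in none of the 6 and in 0.0335% of all windows. The Cd36 window is not printed because no Cd36 transcript of GENCODE M21 opens at its start. These matches describe letters in a short window and were not set against any binding data.

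**Figure D3:**
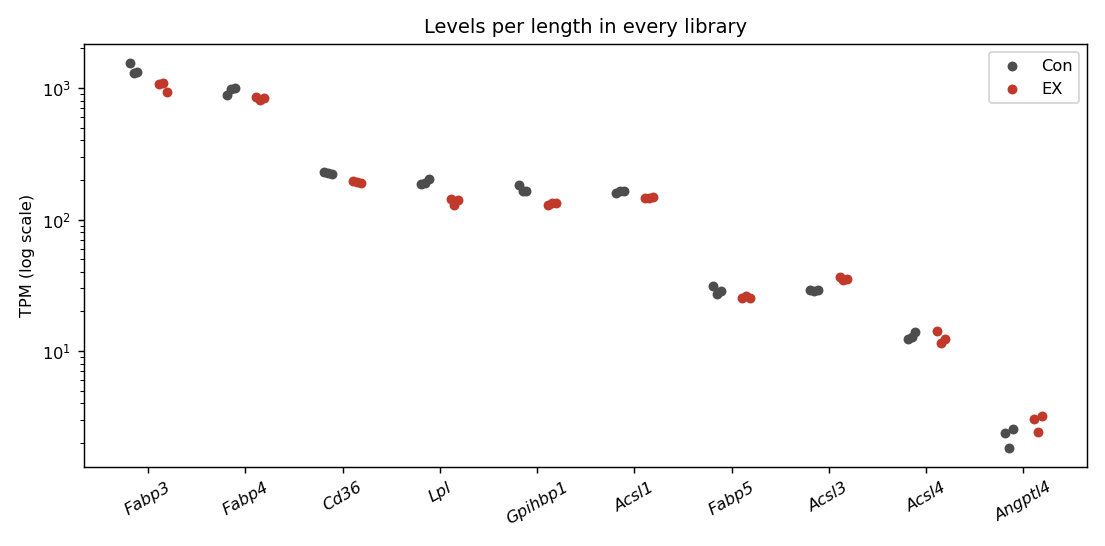
TPM of the 10 genes in each library on a log scale, ordered by the Con mean, with Con in grey and EX in red. Each point is 1 mouse. Levels ran from up to 1543 TPM for Fabp3 in Con to between 1.84 and 3.18 TPM for Angptl4.

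Compared per length in TPM, the order of levels in Con was Fabp3 with a mean of 1390, Fabp4 with 956.5, Cd36 with 226.6, Lpl with 192.5, Gpihbp1 with 169.8, Acsl1 with 162.4, Fabp5 with 29.0, Acsl3 with 28.9, Acsl4 with 13.1 and Angptl4 with 2.26. Neighbours in this order overlapped for Gpihbp1 and Acsl1 and for Fabp5 and Acsl3. In EX, Acsl1 with a mean of 146.3 TPM stood above Lpl with 137.2 and Gpihbp1 with 132.1, which overlapped each other, and Acsl3 with 35.6 stood above Fabp5 with 25.6. The order of the other genes was the same as in Con. The order depends on the length used for each gene. The length that count over FPKM implies averaged 355 bases for Fabp3, 354 for Fabp4 and 3724 for Lpl in Con. GENCODE M21 gives their coding transcripts as 823, 896 and 4115 bases. All 10 levels are within-library shares, so TPM also moves with the abundance of other genes.

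**Figure D4:**
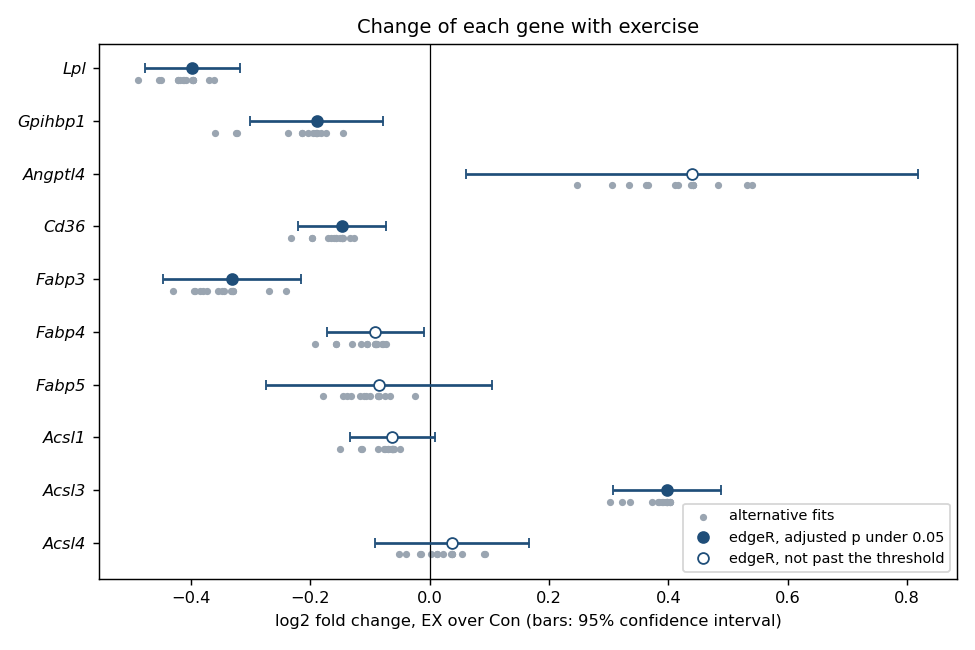
Log2 fold change, EX over Con, of the 10 genes. Large points with bars are the edgeR estimates with their 95% confidence intervals, filled where the adjusted p is under 0.05, and small grey points are the alternative fits. All estimates of Lpl, Fabp3, Gpihbp1, Cd36, Fabp4, Fabp5 and Acsl1 lay below 0 and all of Acsl3 and Angptl4 above it. Those of Acsl4 fell on both sides.

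Other acyl-CoA synthetases moved in both directions. Of 14 listed genes 8 were tested, 2 were lower and 1 was higher, and the median log2 fold change was -0.11. Acss1 and Acss2, which activate acetate in mitochondria and in the cytosol, changed by -0.44 (adjusted p = 4.9e-06 with edgeR) and -0.21 (0.0081). Acsl6, a long-chain synthetase, rose from 40.1 ± 1.69 to 45.2 ± 2.11 CPM (log2 fold change 0.17, adjusted p = 0.0286). Of the acyl-CoA binding proteins and thioesterases 13 of 21 were tested, with a median of -0.05, and only Dbi, the acyl-CoA binding protein, was called, higher at 0.16 on the log2 scale (edgeR, adjusted p = 0.0440). No gene of that list was called in 9 of the 15 alternatives: without Con replicate 1 or 3, without EX replicate 2 or 3, with DESeq2, with totals without the 20 most abundant genes, with the filter of 5 FPKM and in both limma fits on FPKM.

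Ppara, the PPAR receptor best known for fatty acid oxidation genes, fell from 19.5 ± 0.699 to 13.7 ± 0.250 CPM (log2 fold change -0.52, adjusted p = 1.4e-05 with edgeR). It was the only called gene among the 8 PPAR receptors and partners, whose median was -0.03. Ppard averaged 27.7 CPM in Con and 24.8 CPM in EX, and Ppargc1a, a coactivator of oxidative metabolism, 40.3 and 43.2 CPM, neither past the threshold. Among other known PPAR targets 21 of 22 were tested, 4 were lower and 2 higher, with a median of -0.07. Ucp3, a mitochondrial carrier, rose from 176.1 ± 14.8 to 247.5 ± 2.90 CPM and Plin4, a lipid droplet coat protein, from 405.3 ± 14.4 to 500.5 ± 17.3 CPM. Acadl, an enzyme of fatty acid oxidation, changed by -0.24 and Pdk4, which restrains glucose oxidation, by -0.19. All 4 were past the threshold with edgeR (adjusted p = 4.8e-09, 7.5e-07, 4.5e-05 and 0.0002).

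Over the 6 lists of pathway genes, 13 genes were lower and 6 higher of 75 tested, where 8.8% of all genes tested were lower and 9.11% higher. Without EX replicate 3 the numbers were 12 and 3, and with limma on log2(TPM + 0.1) 24 and 2, in a fit that called 1684 of all genes lower and 340 higher. No list was tested as a set, and the counts are a description.

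**Figure D5:**
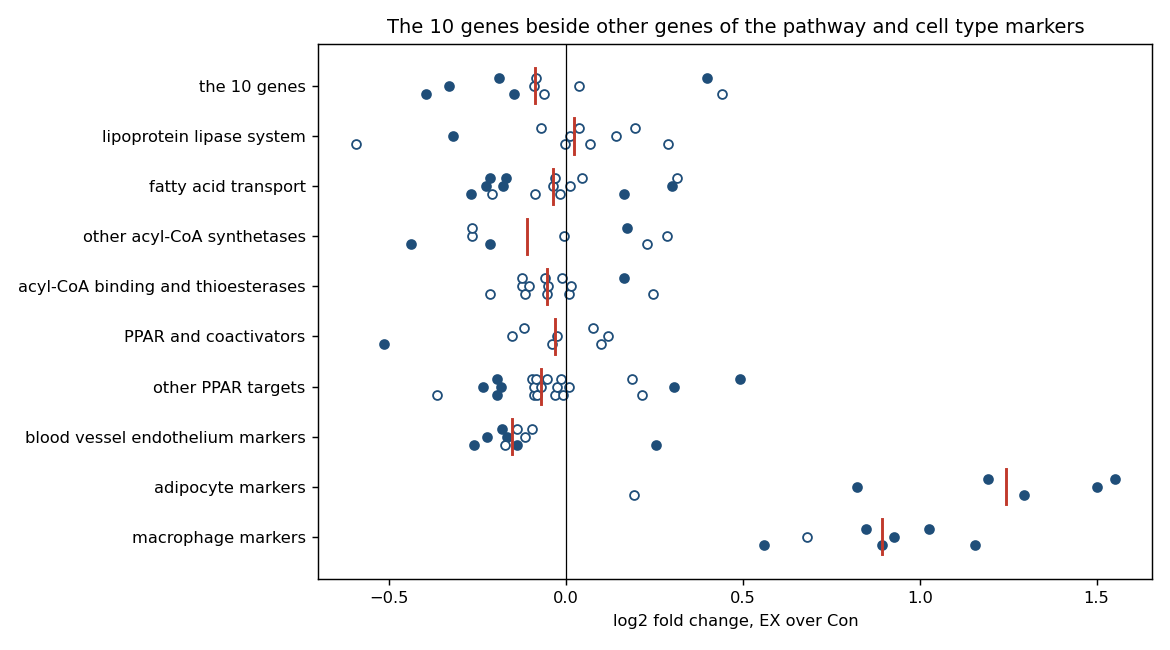
Log2 fold change, EX over Con, of the 10 genes, the other listed genes of the pathway and 3 lists of cell type markers. Each point is 1 gene, filled where the adjusted p from edgeR is under 0.05, and red bars are medians. The medians of the pathway lists lie between -0.11 and 0.02, with genes on both sides of 0. The 10 genes have a median of -0.09 and the endothelial markers 1 of -0.15, and the adipocyte and macrophage markers lie above 0.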

How the data were processed

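Total RNA was extracted with TRIzol and sequenced on the DNBseq platform. The table that the authors deposited gives, for 16759 genes and each library, an estimated count with its FPKM and TPM. The paper names HISAT with GRCm39, while the submitters' processing notes list GRCm38.p6, cutadapt and featureCounts without a role. Between 4.18% and 4.44% of counts per library were not whole within a tolerance of 0.005, and all were rounded. The 6 columns of group means were not used.

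The 10883 genes averaging 1 FPKM or more were tested with edgeR 4.0.16 (TMM, glmQLFit and glmQLFTest) in R 4.3.3, with Benjamini-Hochberg adjustment and a threshold of 0.05. Alternatives used DESeq2 1.42.0, limma 3.58.1 on log2 FPKM or TPM, other scalings and filters, a replicate block and each library left out. Fold changes from limma are on the log2(value + pseudocount) scale, with pseudocounts of 0.1 and 1, and understate the change of low genes. Scripts were checked on simulated counts. Shares, ratios and implied lengths were compared by exact permutation tests.

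The members and lists were chosen with earlier results of these data known. Named genes are the 10 members, of each pathway list up to 4 called genes with the smallest adjusted p (those named as not called, under the filter or as neighbours were added after seeing values), and defining cell markers. Shared stretches of 31 bases were counted in GENCODE M21 transcripts, and upstream windows were taken from RefSeq. The separate mice are the replicates, and the labels give no batch. Depth limits the precision of low genes such as Angptl4.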

Additional observations from a re-analysis of the deposited data

How the results depend on the processing

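Lpl, Fabp3 and Acsl3 kept their direction and stayed past the threshold in all 15 alternative fits. Leaving out 1 library gave 3 to 5 called genes of the 10 and 1344 to 1857 called genes of all, lowest in both without EX replicate 3, where Gpihbp1 and Cd36 lost their calls. DESeq2 called 1228 of all genes and 4 of the 10. The split of all calls moved with the scale: 991 higher and 958 lower in the edgeR test, 772 and 1259 with totals without the 20 most abundant genes, 411 and 1037 with limma on log2(FPKM + 0.1), 411 and 1032 on log2(FPKM + 1), and 340 and 1684 on log2(TPM + 0.1). The median log2 fold change of the 10 genes was -0.11, -0.15, -0.15 and -0.19 in these 4 fits, against -0.03, -0.06, -0.05 and -0.09 for all genes. Fabp4 gained a call with the totals (adjusted p = 0.0411), with TPM (0.0216) and without Con replicate 1 (0.0100). The filter of 5 FPKM removed Angptl4 and Ppara. The log2 fold change of Acsl4 was -0.0162 and -0.0145 on the FPKM scales with pseudocounts of 0.1 and 1, -0.0511 on TPM and -0.0391 to 0.0919 with 1 library left out, and that of its share -0.256 to 0.347 percentage points. The cause of these shifts was not tested.

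Replicate numbers did not pair the mice: the correlations of same-numbered Con and EX deviations were -0.08, -0.05 and -0.01, and with the replicate block 5 of the 10 genes and 1782 of all genes were called. Counts of 31 to 57 per library limit what can be seen for Angptl4.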
